A study of Mus musculus with 6 samples.

Results

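Wide methylated peaks are the MeDIP-seq peaks of 1500 bp or more on mouse chromosomes 1 to 19. They were taken from the peak lists of 6 hippocampi, counted once per list, and merged to regions where they shared at least 1 bp. The rule found 1544 wide peaks among 141949 autosomal peaks (1.09%), which merged to 622 regions among 46696 (1.33%) and covered 1.06 Mb. Width chose the members, so their widths, summit heights and enrichments were not tested against those of other peaks. Tests were kept to sequence, gene class and treatment. The treatment tests include counts, widths and summit heights of the members, which are tied to the rule.

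In methylated DNA immunoprecipitation, an antibody against 5-methylcytosine pulls down sonicated DNA, and a stretch becomes a peak when many of its cytosines are methylated. In adult mammalian tissue the densest methylation lies on retrotransposons, which are copies of mobile DNA, on satellite repeats near centromeres, on the silent alleles of imprinted genes and inside some gene bodies. Intracisternal A-particle (IAP) elements are young mouse retrotransposons with a long terminal repeat (LTR) at each end. They are kept silent by DNA methylation, and a few of them differ in methylation between mice of identical genotype.

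The animals were male C57BL/6 mice aged 21 days. 3 were given ethanol at 2.5 g/kg in 0.15 M NaCl, in 2 injections under the skin on each of postnatal days 4 and 7, and 3 were given 0.15 M saline on the same schedule. They are described as matched littermates without naming the litters, so the p-values below treat the animals as independent. The hippocampus was taken whole, so a change in methylation and a change in the mix of cell types cannot be told apart. Such early dosing of pups models heavy alcohol exposure of the developing brain. The comparison asks whether methylation still differed at weaning age.

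The lists held 22127, 33351 and 27037 autosomal peaks in ethanol libraries 1 to 3, against 17934, 21737 and 19763 in saline libraries 1 to 3. Every ethanol list was longer than every saline list. The lowest background pileup in a list, the only measure of depth they carry, was 2.28 ± 0.0988 in ethanol and 2.18 ± 0.419 in the saline ones (SD, n = 3 each). With lists cut to equal length, the group difference in the number of wide peaks was 126, against 141 with whole lists. The cut kept the peaks of best q. Median −log10 q per library was 44.5 to 53.5 in wide peaks and 20.8 to 22.5 in other peaks. The cut therefore fell mainly on other peaks and cannot show what list length contributes to the number of wide peaks.

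The sequences that carry the account of the wide regions are given first. They were read from the RefSeq copy of GRCm38, the build also named mm10, 5′ to 3′ on the strand of the feature, with each CpG in capitals. The first is the start of the 5′ LTR of the IAP element inside Adamts13, at chr2:26998298-26998597, plus strand. It is the element against which the others were aligned.
Adamts13 element LTR: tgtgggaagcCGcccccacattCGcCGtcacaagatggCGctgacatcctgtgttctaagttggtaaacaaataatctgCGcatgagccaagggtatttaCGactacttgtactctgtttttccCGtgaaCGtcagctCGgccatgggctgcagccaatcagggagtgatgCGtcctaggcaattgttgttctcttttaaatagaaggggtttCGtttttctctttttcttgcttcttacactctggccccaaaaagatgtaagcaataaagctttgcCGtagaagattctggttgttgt
The next pair comes from an IAP-like copy near Lrguk, plus strand. One sequence, chr6:33743866-33744165, lies in the stretch that had a peak in every library. The other, chr6:33744695-33744994, lies in the stretch that had a peak in each ethanol library and in no saline library.
Lrguk stretch shared by all libraries: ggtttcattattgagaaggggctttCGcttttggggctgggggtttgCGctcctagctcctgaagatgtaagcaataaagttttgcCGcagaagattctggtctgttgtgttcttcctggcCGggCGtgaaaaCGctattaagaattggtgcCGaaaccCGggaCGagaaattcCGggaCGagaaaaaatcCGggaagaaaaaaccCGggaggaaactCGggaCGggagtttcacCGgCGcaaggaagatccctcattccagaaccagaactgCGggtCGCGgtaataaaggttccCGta
Lrguk stretch of the ethanol libraries: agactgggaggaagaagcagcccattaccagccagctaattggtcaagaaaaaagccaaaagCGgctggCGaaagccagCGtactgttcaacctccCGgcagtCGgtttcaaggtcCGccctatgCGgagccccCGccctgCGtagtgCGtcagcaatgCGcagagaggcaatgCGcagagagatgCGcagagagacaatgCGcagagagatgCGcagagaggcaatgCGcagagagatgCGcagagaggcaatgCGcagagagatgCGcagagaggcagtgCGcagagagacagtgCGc
The same pair follows for a copy near Samd9l, minus strand, at chr6:3190416-3190715 and chr6:3191133-3191432.
Samd9l stretch shared by all libraries: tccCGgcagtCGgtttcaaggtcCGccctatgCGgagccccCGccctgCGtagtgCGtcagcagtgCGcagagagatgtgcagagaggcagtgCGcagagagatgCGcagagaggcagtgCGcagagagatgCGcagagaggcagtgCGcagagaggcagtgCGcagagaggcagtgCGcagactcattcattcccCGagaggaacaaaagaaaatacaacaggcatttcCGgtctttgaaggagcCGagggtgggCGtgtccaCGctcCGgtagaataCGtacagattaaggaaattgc
Samd9l stretch of the ethanol libraries: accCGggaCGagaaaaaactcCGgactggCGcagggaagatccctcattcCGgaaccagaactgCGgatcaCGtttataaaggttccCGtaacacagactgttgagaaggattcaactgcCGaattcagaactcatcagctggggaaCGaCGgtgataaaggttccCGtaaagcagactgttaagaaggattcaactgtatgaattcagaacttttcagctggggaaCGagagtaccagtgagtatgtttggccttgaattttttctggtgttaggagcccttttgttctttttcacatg
Tandem arrays were the other recurrent form. A 208 bp unit is shown from a region nearest Trim52 (chr14:106721916-106722123), a 234 bp satellite unit from the centromere end of chromosome 9 (chr9:3001314-3001547), and 260 bases of a tandem array near Nod1 (chr6:54977673-54977932), all on the plus strand.
Trim52 tandem unit: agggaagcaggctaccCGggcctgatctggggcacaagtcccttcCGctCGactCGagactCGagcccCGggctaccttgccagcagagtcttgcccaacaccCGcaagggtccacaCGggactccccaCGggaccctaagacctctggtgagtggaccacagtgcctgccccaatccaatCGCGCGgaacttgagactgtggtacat
Chromosome 9 satellite unit: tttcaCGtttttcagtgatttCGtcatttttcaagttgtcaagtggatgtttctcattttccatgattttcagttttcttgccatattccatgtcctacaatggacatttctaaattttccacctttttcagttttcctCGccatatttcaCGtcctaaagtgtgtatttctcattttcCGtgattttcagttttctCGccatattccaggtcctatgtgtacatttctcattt
Nod1 tandem array: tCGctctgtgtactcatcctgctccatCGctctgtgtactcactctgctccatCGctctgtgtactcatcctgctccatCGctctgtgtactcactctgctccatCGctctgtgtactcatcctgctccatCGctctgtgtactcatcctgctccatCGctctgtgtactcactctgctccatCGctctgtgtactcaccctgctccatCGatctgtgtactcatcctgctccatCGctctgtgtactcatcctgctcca
A window from a second dispersed repeat family, at chr1:29698521-29698820 near Gm597, and 2 windows at summits in unique sequence, in Bcl11b (chr12:107916913-107917212) and Gnas (chr2:174327495-174327794), complete the set.
Gm597 repeat: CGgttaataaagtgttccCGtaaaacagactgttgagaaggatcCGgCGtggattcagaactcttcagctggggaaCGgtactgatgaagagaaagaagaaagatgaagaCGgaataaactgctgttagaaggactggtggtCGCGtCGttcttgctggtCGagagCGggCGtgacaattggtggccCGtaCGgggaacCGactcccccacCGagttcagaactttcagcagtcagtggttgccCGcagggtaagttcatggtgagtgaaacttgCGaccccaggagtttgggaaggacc
Bcl11b summit: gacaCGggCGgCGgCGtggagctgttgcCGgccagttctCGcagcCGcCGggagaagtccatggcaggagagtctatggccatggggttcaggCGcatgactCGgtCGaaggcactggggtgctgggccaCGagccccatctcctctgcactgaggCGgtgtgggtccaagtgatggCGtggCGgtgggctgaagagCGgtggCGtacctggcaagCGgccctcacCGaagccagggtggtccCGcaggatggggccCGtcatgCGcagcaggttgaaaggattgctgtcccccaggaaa
Gnas summit: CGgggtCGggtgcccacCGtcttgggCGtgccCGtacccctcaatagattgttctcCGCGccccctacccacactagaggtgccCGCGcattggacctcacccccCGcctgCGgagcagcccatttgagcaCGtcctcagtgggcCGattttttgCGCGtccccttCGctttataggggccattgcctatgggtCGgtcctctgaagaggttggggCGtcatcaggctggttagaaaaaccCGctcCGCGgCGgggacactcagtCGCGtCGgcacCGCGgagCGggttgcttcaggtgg

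Most wide regions were IAP-like retrotransposons. Of the 622 regions, 371 (59.6%) aligned over at least 500 bp to the element in Adamts13, the gene for a protease of von Willebrand factor. RefSeq names transcript variants IAP-a and IAP-b with exons inside this element. That element spans chr2:26998298-27004317, 6020 bp in all, and its LTRs of 338 bp were 100% identical. The regions matched its front end: the median alignment ran from base 24 to base 1443, with a median identity of 85.1%, and 368 of the 371 began within the first 2000 bases. CpG density there was 5.03 per 100 bp in the LTR and 4.80 in the internal sequence just behind it, against 1.93 in the rest of the internal sequence. The wide peaks thus covered the CpG-dense part of a longer element.

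The remaining regions fell into smaller families when the 622 were aligned with each other (at least 80% identity over 800 bp). The largest, of 374 regions, held 367 of the IAP-like ones. In a family of 35 regions, 27 held tandem units with a match of at least 50% between neighbouring units. The most frequent unit was 208 bp long, in 12 of the 35. Over the family the median match was 81.6% and the median CpG density 5.28 per 100 bp. A second dispersed family had 34 regions and a median of 3.18 CpG per 100 bp. A family of 7 regions had a median of 2.06 CpG per 100 bp. In 4 of the 7 the best-matching unit was 234 bp, the unit length of mouse major satellite. Without any partner were 147 regions, with a median soft-masked share of 15.8%, against 99.7% in the largest family. The families were defined after the regions were known, so their shares carry no test.

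**Figure D1:**
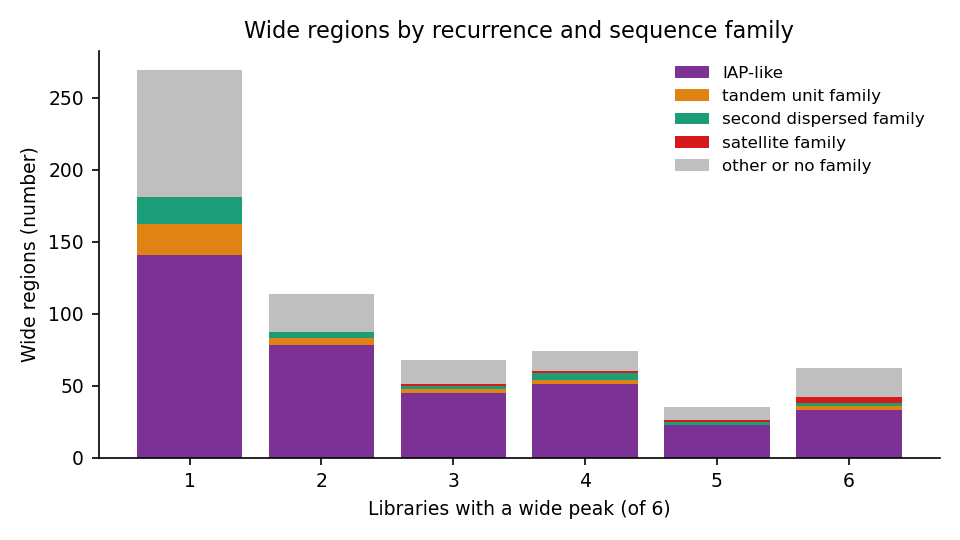
Number of wide regions (vertical axis) by the number of the 6 libraries with a wide peak there (horizontal axis), coloured by sequence family. Regions wide in 1 library only were the most frequent class at 269, and IAP-like sequence made up between 52.4% and 68.9% of every class.

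Recurrence varied widely. A wide peak stood in 1 library only at 269 regions and in all 6 libraries at 62. In between, 114 regions were wide in 2 libraries, 68 in 3, 74 in 4 and 35 in 5. Low recurrence of width did not mean absence of a peak, since 533 of the 622 regions had a peak of some width in every library. In ethanol libraries 1 to 3, 31, 5 and 12 of the 622 regions had no peak at all, against 49, 41 and 38 in saline libraries 1 to 3. A narrower single peak stood at 319, 146 and 227 regions in ethanol libraries and at 354, 311 and 344 in saline libraries. Peaks in several pieces stood at 66, 33 and 43 regions in ethanol libraries and at 61, 53 and 55 in saline libraries.

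The threshold of 1500 bp cut through a continuous range of widths. In the 50 bp from 1500 bp upward ethanol libraries 1 to 3 had 58, 100 and 98 peaks, and in the 50 bp below it 66, 97 and 91. Saline libraries 1 to 3 had 42, 61 and 51 peaks in the upper window and 40, 63 and 48 in the lower. The regions just inside it lay nearest Kcnab3, Kcnk12, Lcorl and Zfhx3, with widest peaks of 1500 bp, and Arrdc3, with 1501 bp. Just outside, with widest peaks of 1498 bp, were regions nearest Ccdc15, Vmn2r60, Mtss1, Shroom3 and Krtap4-6.

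Wide peaks held more CpG and more repeat sequence than the other autosomal peaks, and were less often classed as promoter or gene body peaks. The class is the one given in the lists. It does not measure overlap with genes, and some regions classed as intergenic lie in genes. Median CpG density was 4.17 ± 0.0577 per 100 bp in wide peaks and 2.80 ± 0.228 in other peaks (SD, n = 6 libraries), higher in 6 of 6 libraries. Soft-masked sequence, the reference's mark for repeats, made up on average 79.0% ± 2.68 of wide and 51.9% ± 2.09 of other peaks, higher in 6 of 6. Promoter peaks made up 1.39% ± 0.487 of wide and 3.07% ± 0.114 of other peaks, and gene body peaks 16.5% ± 0.695 of wide and 25.3% ± 0.277 of other peaks, both lower in 6 of 6. Each of these 4 differences had a two-sided exact sign-flip p of 0.031 over the 6 libraries, which was also its value adjusted over the 4. That is the smallest p 6 libraries can give. Against peaks from 1000 bp up to the threshold alone, the CpG difference of 1.37 per 100 bp was 0.594. With a lower minimum of width, the promoter difference of -1.68 percentage points was -0.591 and the gene body difference of -8.79 was -4.84. The libraries share 1 genome, so the test covers the calling and not an independent sample of sequence.

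The widest peaks were a different kind of sequence. In peaks of 2000 bp or more, between 9 and 21 per library, median CpG density lay between 2.32 and 3.52 per 100 bp over the libraries. In wide peaks under 2000 bp it lay between 4.11 and 4.28. With the minimum at 2000 bp, the CpG difference between wide and other peaks shrank to 0.175 per 100 bp (exact sign-flip p = 0.5) and the soft-masked difference turned to -1.80 percentage points (exact sign-flip p = 0.6875). The gene body difference shrank to -3.08 percentage points (exact sign-flip p = 0.46875). Peaks of 2000 bp or more classed as promoter peaks numbered 0 in every library.

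**Figure D2:**
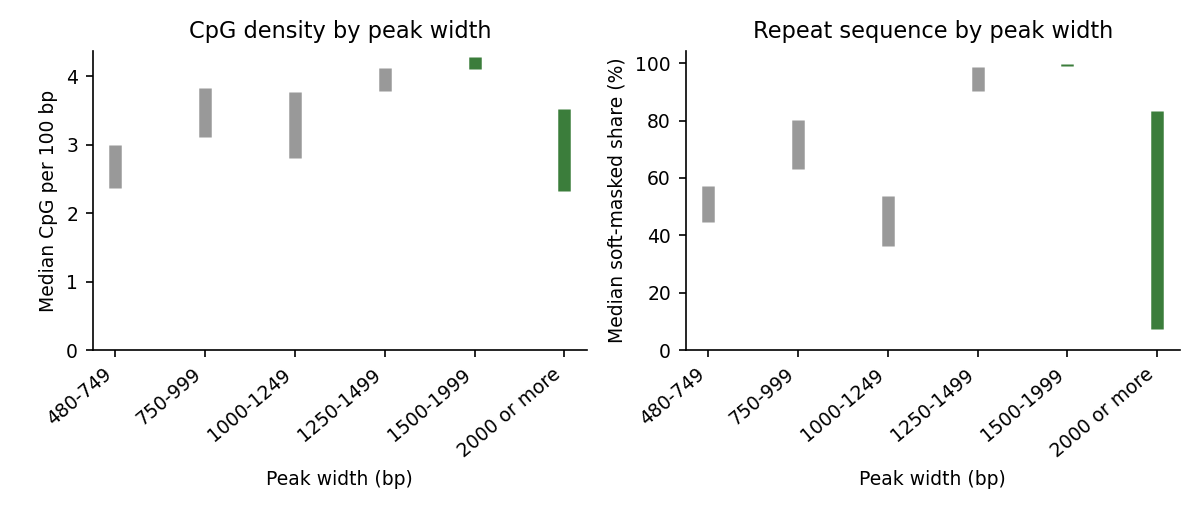
Median CpG per 100 bp (left) and median soft-masked share in percent (right) of autosomal peaks in 6 bands of peak width. Each bar spans the lowest to the highest of the 6 libraries, green for the bands of wide peaks, and wide peaks under 2000 bp had 4.11 to 4.28 CpG per 100 bp while those of 2000 bp or more had 2.32 to 3.52.

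IAP-like copies carried 49.7% ± 2.56 of wide peaks and 3.09% ± 0.567 of other peaks (SD, n = 6 libraries). In the reference genome 1019 autosomal copies of the first 1500 bp of the Adamts13 element were found, with a median identity of 84.96%. A peak of any width stood on 566 of them in all 6 libraries and on 61 in none. A wide peak stood on 97, 228 and 182 copies in ethanol libraries 1 to 3 and on 77, 107 and 88 copies in saline libraries 1 to 3. Ethanol library 1 lay within the saline range.

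Copies close to the query element were wide more often. Among the 76 copies of 95 to 100% identity, 22.4%, 47.4% and 42.1% had a wide peak in ethanol libraries 1 to 3, against 17.1%, 22.4% and 25% in saline libraries 1 to 3. Among the 515 copies of 80 to 85% identity the shares were 4.85%, 14.95% and 10.7% in ethanol libraries and 3.30%, 6.21% and 3.69% in saline libraries. The order held in each of the 6 libraries between these end classes. Identity between copies also sets how uniquely reads align, and the placement of reads with several matches is not described in the labels.

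**Figure D3:**
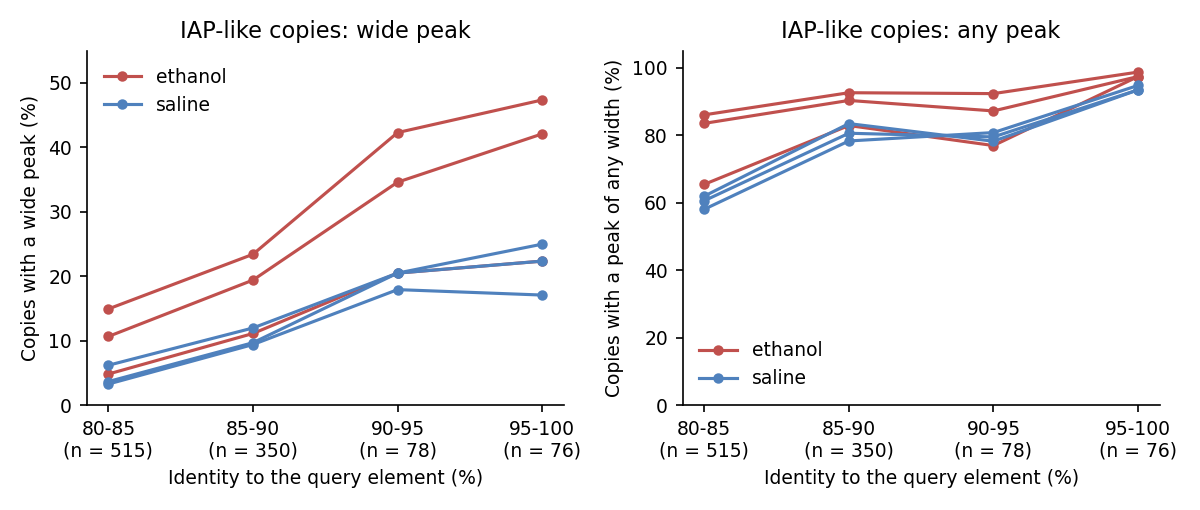
Share of IAP-like copies in percent with a wide peak (left) and with a peak of any width (right), by identity of the copy to the query element in percent, with 1 line per library (ethanol red, saline blue). In every library the share with a wide peak was higher at 95 to 100% identity than at 80 to 85% and ethanol libraries 2 and 3 lay above the others in the left panel.

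Within the IAP-like copies a short motif recurred. GCGCAGAG, counted on both strands, occurred at least once in 365 of 371 IAP-like wide regions (98.4%), in 19 of 251 other wide regions (7.57%) and in 1446 of 46074 regions with no wide peak (3.14%). 3 or more matches stood in 177 IAP-like wide regions (47.7%), in 1 other wide region (0.398%) and in 168 regions with no wide peak (0.365%). The motif was picked from the sequences above after they were seen, and a match describes the sequence only. Matches were not scaled to the length of the region, and wide regions are generally longer. Regions with no wide peak also include IAP-like copies. In the Lrguk copy the stretch with a peak only in ethanol libraries held 11 matches and the shared stretch 0. In the Samd9l copy the ethanol-only stretch held 0 and the shared stretch 7.

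Of the 62 regions wide in all 6 libraries 33 were IAP-like. By the class given in the lists, 54 were intergenic, 8 in gene bodies and 0 at promoters. That class does not measure overlap with genes, and the regions in Gnas and Muc19 described below were classed as intergenic. The widest stood at chr17:39843170-39848731, where RefSeq annotates Rn18s-rs5, a sequence related to 18S ribosomal RNA. Its peaks were 5484, 5533 and 5098 bp wide in ethanol libraries 1 to 3 and 5027, 5499 and 5492 bp in saline libraries 1 to 3. It held 10.2 CpG per 100 bp, the highest of the 62. Ribosomal RNA genes exist in long arrays of which assemblies hold few copies, and reads from other copies were not separated here.

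Satellite and tandem arrays took several of the next places. A region over Gm21738 (chr14:19415793-19419114) was 3314, 3313 and 3322 bp wide in ethanol libraries and 3305, 3300 and 3288 bp in saline libraries. Every ethanol value lay above every saline value here, by a small part of the width. The region over Gm10722, at chr9:3000147-3002715 in the 234 bp satellite, was 2466, 2526 and 2560 bp wide in ethanol and 2528, 2460 and 2502 bp in saline libraries. The region nearest Sfi1 on chromosome 11, a gene with many partial copies, was 2233, 2373 and 2240 bp wide in ethanol and 2297, 2272 and 2194 bp in saline libraries. Near Nod1, which codes for a sensor of bacterial cell wall, a tandem array in which 90.9% of bases match those 130 bp away was 2057, 1999 and 1996 bp wide in ethanol and 1961, 2006 and 2078 bp in saline libraries. At the regions of Gm10722, Sfi1 and Nod1 the groups overlapped. The array nearest Smgc, in the mucin gene Muc19 and with a 489 bp unit, was 2832, 2833 and 2824 bp wide in ethanol libraries, against widest peaks of 1509, 2832 and 1524 bp in saline libraries. Saline libraries 1 and 3 held further peaks there, and the summed widths in saline libraries were 2334, 2832 and 2351 bp.

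The region nearest Col19a1, at chr1:24613596-24615967, was a copy of mitochondrial DNA. Its 2372 bases matched the mitochondrial genome at 100% identity, at positions 6611 to 8982, and no other wide region matched it. It also had the lowest CpG density of the 62 regions, 1.73 per 100 bp. Its summit pileup was 392, 210 and 261 in ethanol libraries 1 to 3, against 570, 444 and 411 in saline libraries 1 to 3, so that every ethanol library lay below every saline library. The log2 change was -0.98 (SE 0.21), with a limma adjusted p of 0.166 over 9757 regions. The adjusted p was 0.00147 without ethanol replicate 1, and between 0.250 and 0.998 when any other library was left out. Reads from mitochondrial DNA and from the nuclear copy cannot be told apart in this sequence.

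Bcl11b and Gnas were among the 62 regions. The coding exon of Bcl11b, a zinc finger transcription factor of hippocampal and cortical neurons, lay at chr12:107915334-107917542, with 91.1% of the region coding and 7.83 CpG per 100 bp. Its peaks were 2001, 2186 and 2137 bp wide in ethanol libraries and 2143, 2141 and 2066 bp in saline libraries. The region in Gnas, an imprinted gene for a stimulatory G protein subunit, lay at chr2:174327103-174328955 with 7.56 CpG per 100 bp, and its peaks were 1610, 1769 and 1619 bp wide in ethanol and 1554, 1647 and 1720 bp in saline libraries. Regions nearest Rnf223 (8.98 CpG per 100 bp) and Tlk2 (6.51) completed the 5 densest. The 5 least dense were those of Col19a1, Ptbp3 (1.81), Thada (2.05) and 2 of the chromosome 9 satellite (1.84 and 2.06).

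Genes of the fixed lists were found near wide regions at unequal rates. Of all 51854 autosomal genes, 1.44% were the annotated or overlapped gene of a wide region, and of the 12681 genes annotated to any peak in the lists, 4.93%. Among imprinted genes it was 10 of 58, but only Gnas and Dcn had a region wide in all 6 libraries, the one at Dcn being IAP-like. The promoter region shared by Peg3, an imprinted zinc finger gene, and Usp29 was 909, 1156 and 1632 bp wide in ethanol libraries 1 to 3, against 480, 682 and 799 bp in saline libraries 1 to 3. Every ethanol value there lay above every saline value, but only ethanol library 3 passed 1500 bp, and width is what chose the region. The share of all regions that separate the groups in this way is not given here. Among potassium channel genes it was 11 of 96, among Zfp zinc finger genes 19 of 410, among vomeronasal receptors 15 of 330 and among olfactory receptors 9 of 1405. Glutamate receptor genes were near in 4 of 26 cases (Grm3, Grm8, Grik3 and Gria4), all intergenic. The list of multicopy and pericentromeric genes had 11 of 29. All these rates count genes and not regions. A region annotated to several genes counted for each of them, as at Peg3 and Usp29 and among the vomeronasal receptors.

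Other lists had few or none. For germline genes it was 1 of 47, the promoter of Sohlh2, a transcription factor of germ cells, whose peaks were 1401, 1548 and 1915 bp wide in ethanol and 804, 789 and 1473 bp in saline libraries. It was 1 of 39 histone modifiers (Kat2b), 2 of 20 genes of DNA methylation and demethylation (Gadd45a and Gadd45g) and 1 of 59 clustered protocadherins (Pcdhb8). No Hox gene (of 43), GABA receptor (of 16), ethanol metabolism gene (of 11) or neurotrophin or activity-regulated gene (of 14) was found. Nor was any marker of neurons (of 6), astrocytes (of 4), the oligodendrocyte lineage (of 5), microglia (of 4), endothelium (of 3) or choroid plexus (of 2), so that the wide regions hold no marker with which to check the tissue.

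The number of wide peaks was higher on average after ethanol, but the groups overlapped. It was 206, 438 and 340 in ethanol libraries 1 to 3, against 158, 217 and 185 in saline libraries 1 to 3. Ethanol library 1 lay below saline library 2. The means were 328 ± 116 in ethanol and 187 ± 29.5 in the saline ones (SD, n = 3 each), a ratio of 1.76, with an exact permutation p of 0.2 (two-sided). Adjusted over 9 measures of wide peaks this p was 0.54, and no division of 6 libraries into 3 and 3 can give a p below 0.1. Without ethanol replicate 1 the difference of 141 peaks became 202 and without ethanol replicate 2 it became 86.3.

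The share of peaks that were wide was 0.931%, 1.31% and 1.26% in ethanol libraries 1 to 3, against 0.881%, 0.998% and 0.936% in saline libraries 1 to 3. The Wilson 95% intervals, which cover counting error only, ran from 0.813% to 1.07% for ethanol library 1 and from 0.875% to 1.14% for saline library 2. The group means were 1.17% ± 0.207 in ethanol and 0.938% ± 0.0587 in the saline ones (exact permutation p = 0.3, SD over n = 3 each). The difference of 0.229 percentage points was 0.703 with lists of equal length (exact permutation p = 0.2) and 0.000533 with a minimum of 2000 bp (exact permutation p = 1). Lists of equal length give every library the same denominator, so the share there only follows the number of wide peaks. Covered length was 0.551 ± 0.194 Mb in ethanol and 0.316 ± 0.0492 Mb in the saline ones (exact permutation p = 0.2, SD over n = 3 each). Wide peaks on sequence of at least 5 CpG per 100 bp numbered 23, 31 and 28 in ethanol and 19, 23 and 29 in the saline ones (exact permutation p = 0.5, n = 3 each).

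Median width was 1610 ± 5.57 bp in ethanol and 1610 ± 10.0 bp in the saline ones (exact permutation p = 1, SD over n = 3 each). Median CpG density was 4.14, 4.09 and 4.13 per 100 bp in ethanol libraries 1 to 3, against 4.20, 4.18 and 4.25 in saline libraries 1 to 3. The groups did not overlap in this measure alone of the 9, and its exact permutation p of 0.1 (n = 3 each) is the smallest the design allows, with an adjusted p of 0.54. IAP-like copies carried 50.9% ± 3.38 of the wide peaks in ethanol and 48.5% ± 0.887 in the saline ones (SD, n = 3 each).

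**Figure D4:**
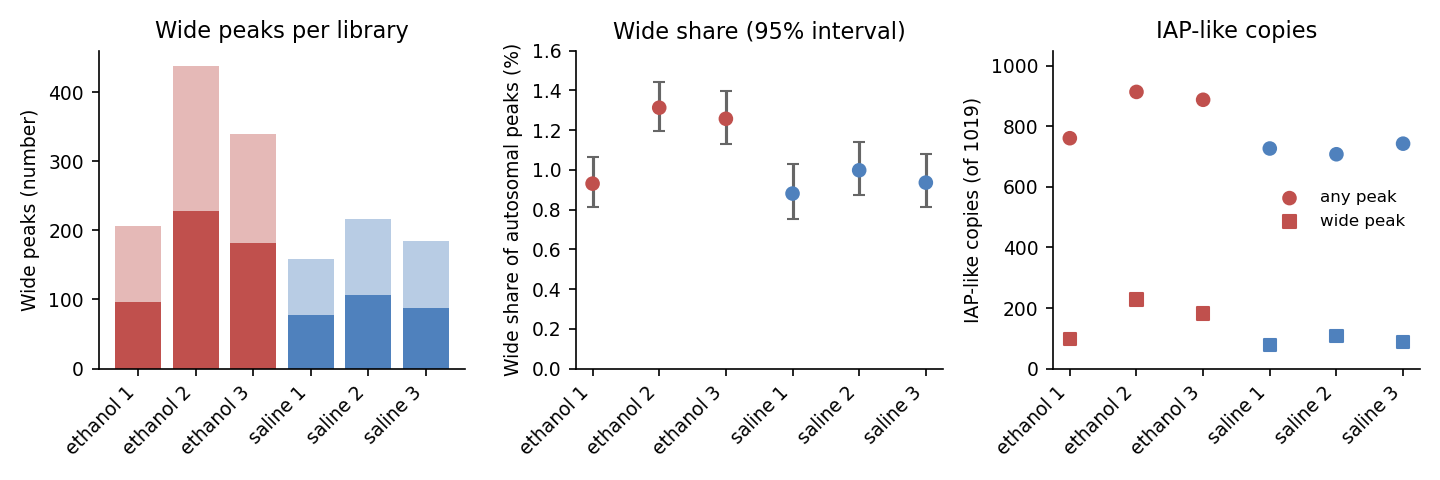
Left, number of wide peaks per library, full colour for those on IAP-like copies and pale for the rest. Middle, wide share of autosomal peaks in percent with its Wilson 95% interval. Right, IAP-like copies with any peak (circles) and with a wide peak (squares) of 1019. Ethanol libraries (red) held 206, 438 and 340 wide peaks and saline libraries (blue) 158, 217 and 185.

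Copies of the IAP-like element with a peak of any width numbered 761, 914 and 888 in ethanol libraries 1 to 3, against 727, 708 and 743 in saline libraries 1 to 3. These values did not overlap. With lists cut to the same length of 17934 peaks they were 696, 802 and 824 in ethanol and 727, 662 and 722 in saline libraries, which did overlap. Copies that held a peak in every ethanol library and in no saline one numbered 20 of 1019 (1.96%), and 0 copies showed the reverse. Over all 46696 autosomal regions the same rule called 1.47% and 0.109%. The copies were chosen after the wide regions were seen, and these counts carry no test.

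A wide peak in every ethanol and no saline library was found at 13 of 622 regions (2.09%), and the reverse at 1 region (0.161%). The call by width is the rule itself, so these counts were read as a description. By a peak of any width, 3 of the 622 (0.482%) were present in every ethanol and no saline library, against 1.47% of all 46696 autosomal regions, and 0 were present in every saline and no ethanol library, against 0.109%. Every one of the 13 regions had a peak of some width in all 6 libraries. Of the 39 sites in saline libraries at these regions, 28 held a single narrower peak and 11 held the signal in several peaks. The count of 13 became 58 without ethanol replicate 1, 23 without ethanol replicate 3, 21 without saline replicate 1 and 27 without saline replicate 2.

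11 of the 13 regions were IAP-like. The other two were in genes. Sema6a, a semaphorin that guides axons, had its region over a coding exon on chromosome 18, with single peaks of 1737, 1697 and 1820 bp in ethanol libraries 1 to 3, against widest peaks of 608, 637 and 579 bp in saline libraries 1 to 3. In saline libraries 1 and 2 a second peak stood in the same region, so that the summed widths were 1088, 1122 and 579 bp. The log2 change of summed width was 0.90. The other was Syna, a syncytin gene derived from a retroviral envelope, at chr5:134558287-134560158 with 96.5% coding sequence. It was 1516, 1562 and 1772 bp wide in ethanol libraries, against 1267, 1328 and 1392 bp in saline libraries. Here the widths stood close to the threshold in both groups.

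Among the IAP-like regions, the one in Enpp6, a gene of oligodendrocytes, was 1690, 1753 and 1674 bp wide in ethanol libraries 1 to 3, against widest peaks of 550 to 616 bp in saline libraries 1 to 3. That nearest Gm2083 was 1722, 1771 and 1668 bp wide in ethanol and 738, 772 and 752 bp in saline libraries, where each library held a further peak, as did saline libraries 1 and 2 in Enpp6. Those nearest Cldn26, Rapgef6, Areg and Ets1 had widest peaks that averaged between 1578 and 1734 bp in ethanol and between 642 and 1184 bp in saline libraries. Saline library 1 held a further peak at Rapgef6 and at Cldn26. The summed widths in saline libraries were 1459, 1493 and 1086 bp at Ets1, so that saline libraries 1 and 2 lay just under the threshold at Ets1. The only region wide in every saline and no ethanol library was IAP-like too and lay nearest Snx19, at chr9:30641812-30643471. Its widest peaks were 593, 674 and 599 bp in ethanol libraries, against 1579, 1637 and 1649 bp in saline libraries. Each ethanol library held the region in several peaks, summing to 1160, 1297 and 1079 bp.

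Summit pileup was then compared at the regions with a peak in all 6 libraries, 9757 in all, of which 533 were wide. Pileups were taken on the log2 scale and centred on the median of all 9757. No wide region passed a limma adjusted p of 0.05, and none of the 9757 did (0%). At an unadjusted p of 0.05, 36 of the 533 wide regions (6.75%) passed, against 520 of all 9757 (5.33%). The median log2 change of the wide regions was 0.04, against -0.01 over all regions, and the median SE of a wide region was 0.20. IAP-like wide regions had a median log2 change of 0.10 and were positive in 232 of 332 cases. The other wide regions had a median of -0.08 and were positive in 67 of 201. Of all 9757 regions 47.7% were positive. With the background level as the scale the median of all regions moved to 0.13, and that of the wide regions to 0.18. On that scale 78.8% of the wide regions and 71.8% of all regions were positive, so the signs depend on the scale. Members entered by a wide peak in any library, and wide peaks had higher summits and were on average more numerous in ethanol libraries. The shares of members that passed or were positive carry that choice, and nothing about treatment is read from them.

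Summed width was fitted over the same 9757 regions, and at the wide regions this fit only picks examples, since width chose them. A limma adjusted p under 0.05 picked 8 of the 533 (1.501%), 7 wider and 1 narrower in ethanol libraries. Over all 9757 regions the share was 0.133%, of which 0.123% were wider and 0.0102% narrower. At an unadjusted p of 0.05, 63 of the 533 wide regions (11.8%) passed, against 5.54% of all. Because a region became a member by being wide in at least 1 library, members had to differ more in width than other regions. Nothing is read from these counts, and the widths below are descriptions with no test. At the 62 regions wide in all 6 libraries, the median log2 change of width was -0.06, with 8 of 62 positive and 0 picked. Of all 9757 regions 45.2% were positive in width. Without median-centring the median of all 9757 moved from -0.01 to 0.06, so the signs of width also depend on the scale. The count of 8 picked regions became 19 without ethanol replicate 1, 2 without ethanol replicate 2 and 2 without ethanol replicate 3. The 7 wider regions were all IAP-like.

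The region nearest Lrguk, at chr6:33743626-33745417 in an intron of Exoc4, was 1579, 1671 and 1736 bp wide in ethanol libraries 1 to 3, against 729, 712 and 647 bp in saline libraries 1 to 3. Its log2 change of width was 1.18. The shared stretch held 5.88 CpG per 100 bp. A further 902 bp, at chr6:33744395-33745296, lay inside the peak of every ethanol library and outside that of every saline library, and held 4.77 CpG per 100 bp. Summit pileup, the highest in the region, was 73, 132 and 99 in ethanol and 86, 85 and 52 in saline libraries. Those values overlapped, with a log2 change of 0.22 (SE 0.22; limma adjusted p = 0.924).

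The same form was seen nearest Samd9l, a gene with antiviral action, at a copy with 96.0% identity to the query. Its peaks were 1424, 1520 and 1523 bp wide in ethanol libraries 1 to 3, against 727, 686 and 737 bp in saline libraries 1 to 3, a log2 change of width of 0.98. Pileup at the summit was high in both groups, 311, 350 and 387 in ethanol and 270, 364 and 308 in saline libraries. The stretch of 766 bp reached only by ethanol peaks held 3.92 CpG per 100 bp, against 5.86 in the shared stretch.

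Nearest Zbtb14 the widths averaged 1525 ± 39.7 bp in ethanol and 571 ± 16.3 bp in the saline ones (SD, n = 3 each), a log2 change of width of 1.34. In an intron of Alk, a receptor tyrosine kinase of developing neurons, they were 1522, 1508 and 1485 bp in ethanol and 713, 673 and 634 bp in saline libraries. In Cdh18, a cadherin of the nervous system, they were 1508, 1452 and 1452 bp in ethanol and 535, 661 and 532 bp in saline libraries. Nearest Frk they were 1742, 1640 and 1644 bp in ethanol and 788, 724 and 740 bp in saline libraries. Nearest Zfp958 the summed widths were 1562, 1671 and 1388 bp in ethanol and 520, 679 and 560 bp in saline libraries, the third ethanol value being the sum of several peaks. In each of the 7 regions the stretch reached only by ethanol peaks held fewer CpG per 100 bp (2.80 to 4.77) than the shared stretch (4.33 to 6.48). The flanks of other peaks were not compared in this way. Stretches were taken from the outer ends of each library's peaks. At Zfp958 the peaks of the third ethanol library therefore did not cover both stretches in full.

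The region that was narrower in the ethanol libraries lay nearest Olfr819, in the second dispersed family. Its summed widths were 2177, 2306 and 2174 bp in ethanol libraries 1 to 3, against 2852, 2776 and 2834 bp in saline libraries 1 to 3, a log2 change of width of -0.42. It was no longer picked when any library other than ethanol replicate 1 was left out. In ethanol library 1 it was held in more than 1 peak.

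**Figure D5:**
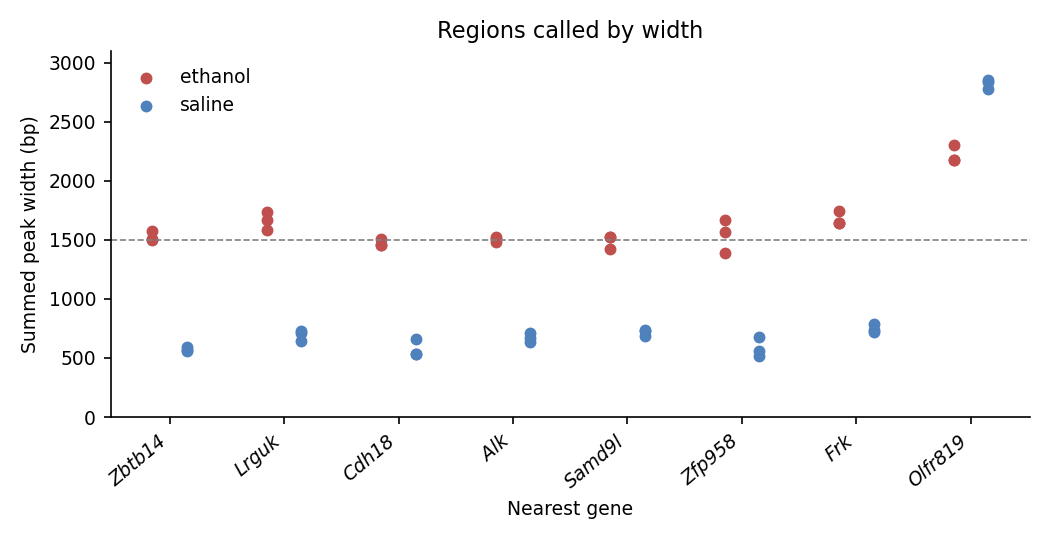
Summed peak width in bp (vertical axis) at the 8 wide regions picked by the width fit, named by the nearest gene, with 1 point per library (ethanol red and left, saline blue and right) and a dashed line at 1500 bp. At 7 regions the ethanol libraries lay between 1388 and 1742 bp and the saline libraries between 520 and 788 bp, and at Olfr819 the order was reversed.

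The reference element and a known variable element were read directly, and both were chosen after their values were seen. In Adamts13 the wide region at chr2:26998361-26999935 was 1535, 1555 and 1516 bp wide in ethanol libraries 1 to 3, against 1367, 1482 and 1502 bp in saline libraries 1 to 3. Its pileup was 91, 122 and 114 in ethanol and 86, 92 and 88 in saline libraries. In Cdk5rap1, where an IAP insertion is known to vary in methylation between genetically identical mice, the region at chr2:154354096-154355955 was 1785, 1808 and 869 bp wide in ethanol libraries, against 1737, 699 and 1556 bp in saline libraries. One library of each group held a narrow peak there, and the groups overlapped.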

How the data were processed

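MeDIP-seq was made from 6 hippocampi, and the deposited peak lists, 1 per library, were used. Reads of 150 cycles were aligned to mm10 with Bowtie2 2.1.0, per the submitters' processing notes, and peaks were called per library with MACS2, per the series' design text, at a stated q of 1e-04. The smallest deposited −log10 q lay between 5.00 and 5.23, above that threshold. Summit pileup is the authors' signal in tags at the summit, not scaled to depth, and total read depth is unknown. The fold is the authors' ratio of summit to local background, per the file headers. An IgG control is not analysed here.

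Peaks of at least 1500 bp on chromosomes 1 to 19 were counted once per list and merged at an overlap of 1 bp. CpG and soft-masking came from the RefSeq copy of GRCm38, genes from the lists and GENCODE. Library measures were compared by exact permutation tests, and wide with other peaks by exact sign-flip tests within libraries. log2 pileup and log2 summed width, computed from the deposited values and median-centred, were tested with limma 3.58.1 over 9757 regions with Benjamini-Hochberg adjustment. On simulated pileups for this comparison (9757 regions), 48 of 50 regions raised by 1 on the log2 scale were recovered and 9 of 50 raised by 0.5. All simulated regions had a common spread, the median of the real regions. Recovery at regions of larger spread was therefore not tested. Families came from BLAST 2.17.0+.

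Genes were named for the 10 widest regions wide in all 6 libraries, the 5 densest and 5 least dense in CpG, up to 10 wide in one treatment alone, members of fixed lists, the 5 regions on each side of the threshold, and regions called by limma. The members and lists were chosen with earlier results of these data known. Same-numbered animals did not deviate together (r of -0.175, -0.0251 and -0.0175), so no pairing was used. Alternatives changed the width minimum, list length, q, merging, scale, pseudocount, filter and libraries.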

Additional observations from a re-analysis of the deposited data

Results flagged for a closer look

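Wide peaks also stood on the sex chromosomes, which the comparisons above leave out. On chromosome Y there were 7, 7 and 8 in ethanol libraries 1 to 3 and 5, 5 and 6 in saline libraries 1 to 3, a mean of 7.33 ± 0.577 in ethanol and 5.33 ± 0.577 in the saline ones (SD, n = 3 each). On chromosome X there were 5, 10 and 7 in ethanol and 1, 7 and 2 in saline libraries, which overlapped. The difference on chromosome Y was not tested, and the ethanol lists were longer throughout.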

How the results depend on the processing

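With the minimum width at 2000 bp the difference in wide peaks on CpG-rich sequence became 0, that of wide from other peaks in CpG became 0.175 per 100 bp, in soft-masked share -1.80 and in gene body share -3.08 percentage points. Regions wide in every ethanol and no saline library then numbered 0, and 27 with a lower minimum or 3 by any peak width. The reverse numbered 0, 2 and 0 under these settings, and width called 1 region at 2000 bp. Leaving out each library gave 17 to 58 regions wide in every ethanol and no saline library and 1 to 3 of the reverse. It gave CpG differences of 1.32 to 1.43 per 100 bp, soft-masked differences of 26.3 to 28.0, promoter differences of -1.79 to -1.53 and gene body differences of -8.86 to -8.57 percentage points, all at an exact p of 0.062, the smallest 5 libraries can give. It gave 0 to 1 regions called by pileup and 2 to 19 by width. With a replicate block, pileup called 1 region (Col19a1) and width 0, and the difference in wide peaks stayed at 141 (exact sign-flip p = 0.25). The causes of these moves were not tested. A lower minimum made the difference in wide share 0.383 percentage points. Of the alternatives for the main results, 86 were counted as unchanged, although some moved the size. A count of regions moved in 21, a test of wide against other peaks weakened in 26, and a sign was lost or reversed in 2. For treatment differences per library, unchanged means only that the sign held. Total depth is unknown, so a missing peak shows only that a threshold was not passed.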
